A study of Mus musculus with 7 samples.

Results

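Tbx2, Tbx3 and Tbx20 encode T-box transcription factors, and they were followed here as 3 of the 32285 genes measured by single-cell RNA sequencing in 7 libraries of mouse neural crest cells (NCCs). The genes were taken by symbol. Their unique molecular identifier (UMI) counts were read in mesenchymal NCCs, defined as cells with at least 2 UMIs of Twist1, Prrx1 and Prrx2 together, and in these cells split by UMIs of Hoxa2, of the Hox 3 genes (Hoxa3, Hoxb3 and Hoxd3), of Foxf1 and of Acta2 with Tagln. Cells with at least 2 Sox10 UMIs that were not mesenchymal, neurons and neural progenitors were measured alongside. In the mouse assembly GRCm38, Tbx2 lies on the forward strand of chromosome 11 at 85832551 to 85841948. Tbx3 lies on the forward strand of chromosome 5 at 119670669 to 119684724, where the annotated antisense gene Tbx3os1 overlaps its start, and Tbx20 on the reverse strand of chromosome 9 at 24718138 to 24774303.

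The series followed NCCs into the pharyngeal arches and the heart and asked what the loss of Tbx1 changes in them. All embryos were labelled Swiss-Webster, a mixed background by the study's methods, and carried Wnt1-Cre/+;ROSA-EGFPf/+, so that Cre driven by Wnt1 switches on EGFP in the neural crest and in the dorsal neural tube, and living EGFP-positive cells were sorted from pooled embryos. Controls were 1 library of the anterior part of the embryo at embryonic day (E) 8.5, 1 library of the pharyngeal apparatus with the heart at E9.5 and 2 libraries of arches 2 to 6 with the heart at E10.5. The libraries titled Tbx1null were 1 at E9.5, from the same tissue as its control, and 2 at E10.5, from the tissue below arch 1 with the heart, while the genotype field of all 3 reads Wnt1-Cre/+;Tbx1+/-;ROSA-EGFPf/+. They are called null libraries here after their titles, and the study describes these embryos as Tbx1-/-. The conflict with the genotype field could not be settled from the counts. Levels are given in CPM, the UMIs of a gene per 1000000 UMIs of the cells summed. Tbx1 was at 5.76 and 4.09 CPM over the kept cells of the E10.5 controls and at 2.92 and 3.01 CPM in the E10.5 null libraries. It was at 0.96 CPM in the E9.5 control, 0.54 CPM in the E9.5 null library and 0.50 CPM at E8.5, and a 3′ count cannot check the allele if the removed part lies elsewhere in the gene. Nothing in the labels says that the replicates were separate litters, so the p-values measure only the spread between these libraries. The E10.5 labels word the tissue differently for controls and null libraries, while the study's methods give 1 dissection for that stage, with the head and arch 1 removed. The kit was v2 at E8.5, v3 in the E9.5 null library and E10.5 null replicate 1, and v3.1 in the others. Genotype and kit therefore cannot be told apart at E9.5, nor stage, kit and dissection at E8.5.

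T-box factors share a DNA-binding domain and act as activators or repressors of transcription. Tbx2 and Tbx3 are close relatives that act mainly as repressors, respond to BMP signals in several tissues and are known for keeping the atrioventricular canal and outflow tract of the heart from taking on chamber muscle identity. Tbx3 is also required for the cardiac conduction system and for limb and mammary development. Tbx20 is a factor of the heart and the endocardial cushions and valves, and it is also made in hindbrain motor neurons. Tbx1, the factor altered in the null libraries, acts in the pharyngeal endoderm and mesoderm that NCCs migrate through. The NCCs that carry Hox 3 transcripts are those of the caudal arches, from which the cardiac neural crest enters the outflow tract and forms smooth muscle.

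After filtering, 5587 to 9555 cells per library remained, with a median of 14832 to 22852 UMIs per cell, and 2191 to 7098 of them were mesenchymal. Any pair of libraries shared 0 to 44 cell barcodes, at most 0.41% of the smaller library. E10.5 null replicate 2 stood apart: 80.7% of its mesenchymal cells had a Hox 3 UMI, against 61.9% in null replicate 1 and 25.1% and 36.6% in the controls, and it held only 422 mesenchymal cells without one. The summed level of 5 neuron markers (Elavl3, Elavl4, Stmn2, Tubb3 and Dcx) in mesenchymal cells was 40.5 and 80.9 CPM in the E10.5 controls and 141 to 793 CPM in the null libraries. The genotype tests in mesenchymal, Hox 3 and Hoxa2 cells, the Hox 3 split and its interaction with genotype were also run with mesenchymal cells that hold neuron transcripts left out. Counts were summed over the cells of a group in each library and tested with edgeR's quasi-likelihood test, with Benjamini-Hochberg adjustment over all genes and a threshold of 0.05. A summed level cannot separate fewer expressing cells from less RNA per cell.

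Tbx2 and Tbx3 were genes of the mesenchymal NCCs, and most of their UMIs lay there. Mesenchymal cells held 93.0% to 98.5% of the Tbx2 UMIs and 88.8% to 97.6% of the Tbx3 UMIs of the control libraries and the E9.5 null library, and 75.6% and 86.1% of Tbx2 and 62.4% and 79.8% of Tbx3 in the E10.5 null libraries. Tbx2 in mesenchymal cells was at 0.90 CPM at E8.5, 13.6 in the E9.5 control, 45.3 and 28.7 in the E10.5 controls, 25.2 in the E9.5 null library and 72.2 and 50.6 in the E10.5 null libraries. Tbx3 was at 9.89 CPM at E8.5, 23.8 in the E9.5 control, 17.4 and 23.3 in the E10.5 controls, 31.7 in the E9.5 null library and 33.9 and 32.1 in the E10.5 null libraries. Tbx2 was thus lowest at E8.5 and highest in the E10.5 null libraries, and Tbx3 was already present at E8.5 and varied less over the later libraries. Tbx20 was at 0.07 CPM at E8.5, 0.56 and 0.49 in the E9.5 control and null libraries, 5.18 and 6.09 in the E10.5 controls and 2.77 and 5.52 in the E10.5 null libraries. In neural progenitors, a Wnt1-Cre-marked cell type of the neural tube that served as background, Tbx2 was at 0 to 1.90 CPM, Tbx3 at 0.10 to 0.90 CPM and Tbx20 at 0 to 0.18 CPM.

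**Figure D1:**
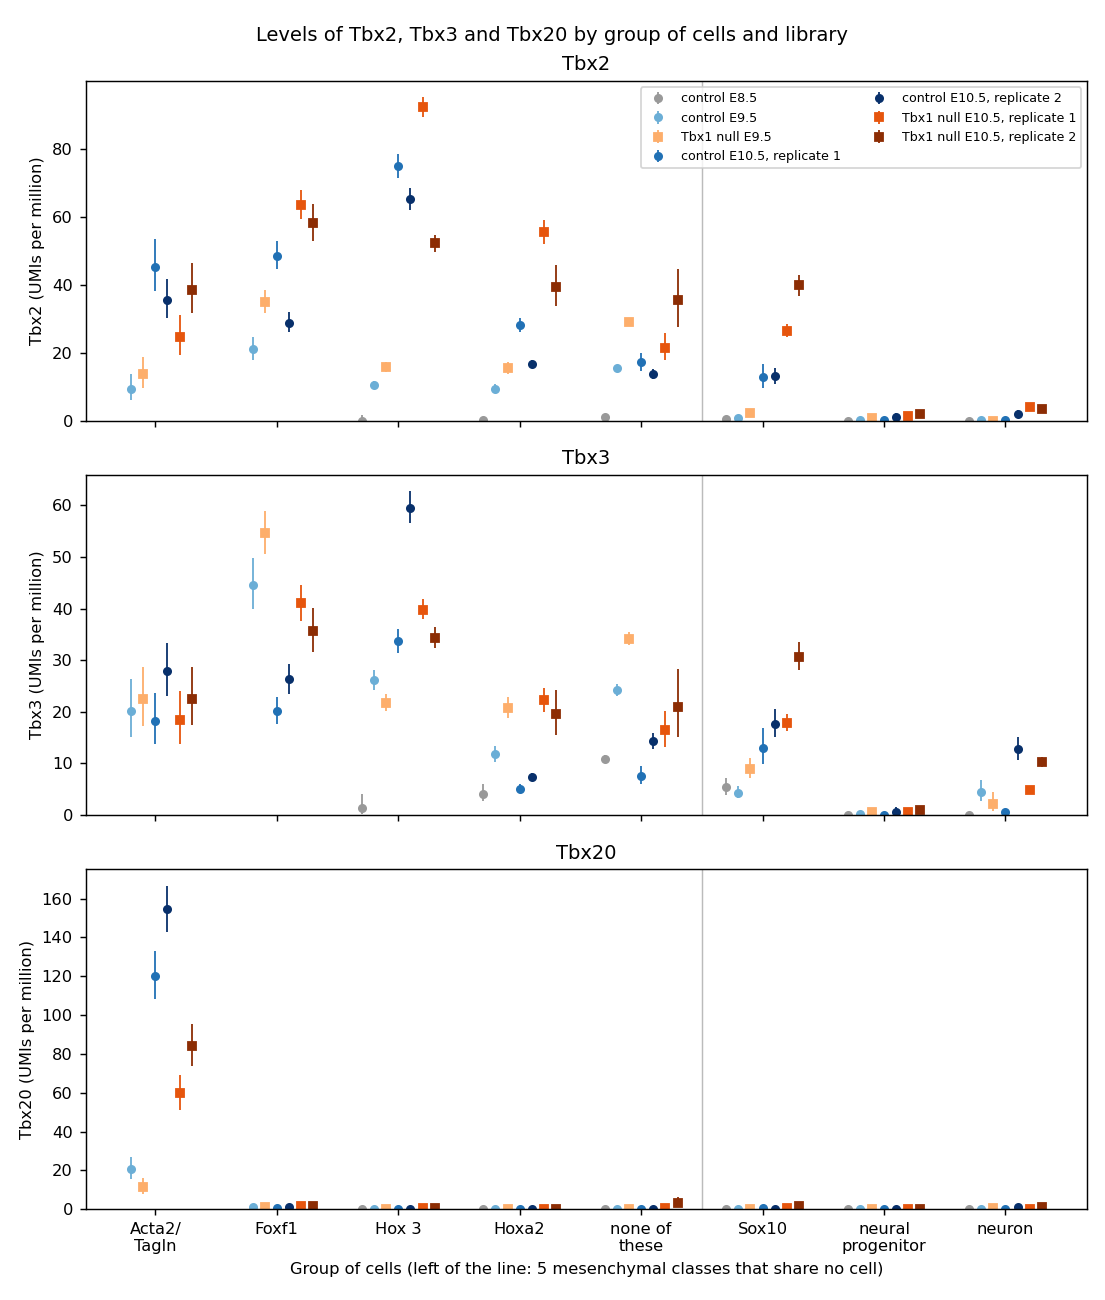
Level of Tbx2, Tbx3 and Tbx20 in CPM (UMIs of the gene per 1000000 UMIs of the cell group) in each group of cells, with 1 point per library, colored by stage and genotype. The mesenchymal groups are 5 classes that share no cells (Acta2/Tagln, Foxf1, Hox 3, Hoxa2 and none of these). Groups of few cells are not drawn. Tbx2 and Tbx3 are spread over these classes and reach 92.1 and 59.6 CPM in the Hox 3 class. Tbx20 stands out in the Acta2/Tagln class at 59.7 to 154 CPM at E10.5.

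Counted per cell, the difference between mesenchymal cells and progenitors had the same form. After each cell was thinned to 5000 UMIs, Tbx2 was seen in 0.43% of mesenchymal cells at E8.5, in 5.99% and 10.8% in the E9.5 control and null libraries, in 14.8% and 10.4% in the E10.5 controls and in 23.5% and 17.0% in the E10.5 null libraries. The share among neural progenitors was 0% to 1.27%. Without thinning these shares were 2.23% to 48.8% of mesenchymal cells, at a median of 16278 to 25563 UMIs, and 0% to 2.69% of progenitors, at a median of 10003 to 19347 UMIs. Tbx3 was seen in 4.54% to 14.1% of thinned mesenchymal cells, or 18.6% to 41.3% unthinned, against 0% to 0.42% of thinned progenitors. Both genes lay above the progenitor share of the same library in all 7 libraries, and the Tbx2 share at E8.5 was the lowest. UMIs per positive cell also differed with the stage: at E8.5 no mesenchymal cell had 3 or more Tbx2 UMIs, whereas 501 of 3277 cells in E10.5 control replicate 1 and 849 of 3170 in E10.5 null replicate 1 did.

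The rest of the T-box family was measured in the same cells. Mga, a T-box protein that is widely expressed and pairs with Max, ranged over the libraries from 23.1 to 56.7 CPM in mesenchymal cells. Tbx1 ranged from 0.60 to 8.66 CPM, Tbx15, a factor of skeletal and dermal mesenchyme, from 0.08 to 4.74 CPM, and Tbx18 from 0.10 to 1.68 CPM. Tbx3os1, Tbx5, Tbx4 and Tbx6 stayed at or below 1.84 CPM, and Tbx19 was at 0 in all 7 libraries. These are 3′ UMI counts on a scale that was not corrected for how well each transcript's end is captured, so the order of the genes is not an order of transcript numbers.

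Between E9.5 and E10.5, with genotype as a term of the model, Tbx2 and Tbx20 rose in mesenchymal cells. The log2 difference (E10.5 minus E9.5) was 0.86 for Tbx2 (95% confidence interval 0.26 to 1.45, adjusted p = 0.0486) and 2.68 for Tbx20 (1.85 to 3.51, adjusted p = 0.00719), beside 22.8% of 16395 genes called. For Tbx3 it was -0.59 (-1.01 to -0.17, adjusted p = 0.0527). The Tbx2 call was lost without E10.5 control replicate 1 (0.69, adjusted p = 0.123), control replicate 2 (0.97, adjusted p = 0.0525) or null replicate 1 (0.72, adjusted p = 0.0789), with DESeq2 size factors in edgeR (0.81, adjusted p = 0.0605) and with cells kept from 200 genes up and to 5% mitochondrial UMIs (0.89, adjusted p = 0.0585). Tbx3 was called lower without null replicate 1 (-0.64, adjusted p = 0.0480), by DESeq2 (-0.63, adjusted p = 0.0133), with DESeq2 size factors in edgeR (-0.63, adjusted p = 0.0445) and with no filter on low counts (-0.62, adjusted p = 0.0265). In the Hox 3 cells alone the Tbx2 difference was 2.02 (1.34 to 2.69, adjusted p = 0.00600) and that of Tbx20 4.19 (2.48 to 5.90, adjusted p = 0.0103), beside 20.7% of 14608 genes called. Tbx3 was at 0.34 (-0.22 to 0.89, adjusted p = 0.333). With cells holding transcripts of heart muscle, endothelium or epithelium left out, Tbx20 was at 1.36 in mesenchymal cells (adjusted p = 0.0557) and 2.76 in Hox 3 cells (adjusted p = 0.0504). The tissue taken also differed between these stages.

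At E10.5 the caudal, Hox 3-positive mesenchymal NCCs held more Tbx2 and Tbx3 than the Hox 3-negative cells. Tbx2 was at 77.2 and 64.9 CPM with a Hox 3 UMI and at 24.8 and 15.6 CPM without one in control replicates 1 and 2. It was at 88.7 and 53.7 CPM with and 45.7 and 36.6 CPM without in null replicates 1 and 2. The Hox 3 cells were higher in all 4 libraries, and the gap was wider in the controls. Tbx3 was at 34.3 and 58.4 CPM with and 6.42 and 10.6 CPM without a Hox 3 UMI in the controls. It was at 39.7 and 34.4 CPM with and 24.6 and 21.9 CPM without in the null libraries, again higher with a Hox 3 UMI in 4 of 4. With the library as a block, the log2 difference was 1.32 for Tbx2 (0.84 to 1.80, adjusted p = 0.00441) and 1.57 for Tbx3 (0.79 to 2.36, adjusted p = 0.0176). Tbx20 went the other way, with 2.92 and 5.44 CPM with and 6.63 and 6.32 CPM without a Hox 3 UMI in the controls and 1.72 and 3.69 CPM with and 4.46 and 13.7 CPM without in the null libraries. Its log2 difference was -1.15 (-1.77 to -0.53, adjusted p = 0.0255), and 3 of 3 genes were thus called, beside 14.7% of 14071 genes.

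The markers of neurons moved with this split: 5 of 5 were higher in the Hox 3 cells, with a median log2 difference of 1.96 and Stmn2 at 2.95. With cells holding neuron transcripts left out, Tbx2 and Tbx3 differed by 1.66 (adjusted p = 4.5e-05) and 1.87 (adjusted p = 0.00206), and Tbx20 was no longer called at -0.72 (adjusted p = 0.0877). Leaving out cells with transcripts of heart muscle, endothelium or epithelium brought Tbx20 to -0.29 (adjusted p = 0.655). The Tbx3 call was lost without control replicate 1 (1.31, adjusted p = 0.0822) or control replicate 2 (1.22, adjusted p = 0.0551). The Tbx20 call was lost without control replicate 1 (-1.13, adjusted p = 0.104), null replicate 1 (-1.07, adjusted p = 0.0950) or null replicate 2 (-0.90, adjusted p = 0.0712).

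The levels of Tbx2 and Tbx3 followed the number of Hox 3 UMIs in a cell. In control replicate 2, cells with 0, 1, 2 to 3 and 4 or more Hox 3 UMIs held Tbx2 at 15.6, 35.9, 67.9 and 91.1 CPM and Tbx3 at 10.6, 32.0, 59.9 and 83.4 CPM. In control replicate 1 Tbx2 was at 24.8, 48.3, 62.5 and 102 CPM and Tbx3 at 6.42, 17.3, 31.3 and 46.1 CPM. Both genes were higher at each step in both controls. In the null libraries Tbx2 was at 45.7, 53.8, 61.0 and 106 CPM in replicate 1 and at 36.6, 41.0, 53.8 and 57.9 CPM in replicate 2. Tbx3 was at 24.6, 24.2, 28.1 and 46.9 CPM in replicate 1 and at 21.9, 18.2, 29.8 and 42.0 CPM in replicate 2. In the null libraries Tbx3 was thus no higher in cells with 1 Hox 3 UMI than in cells with 0, and it was highest in cells with 4 or more.

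**Figure D2:**
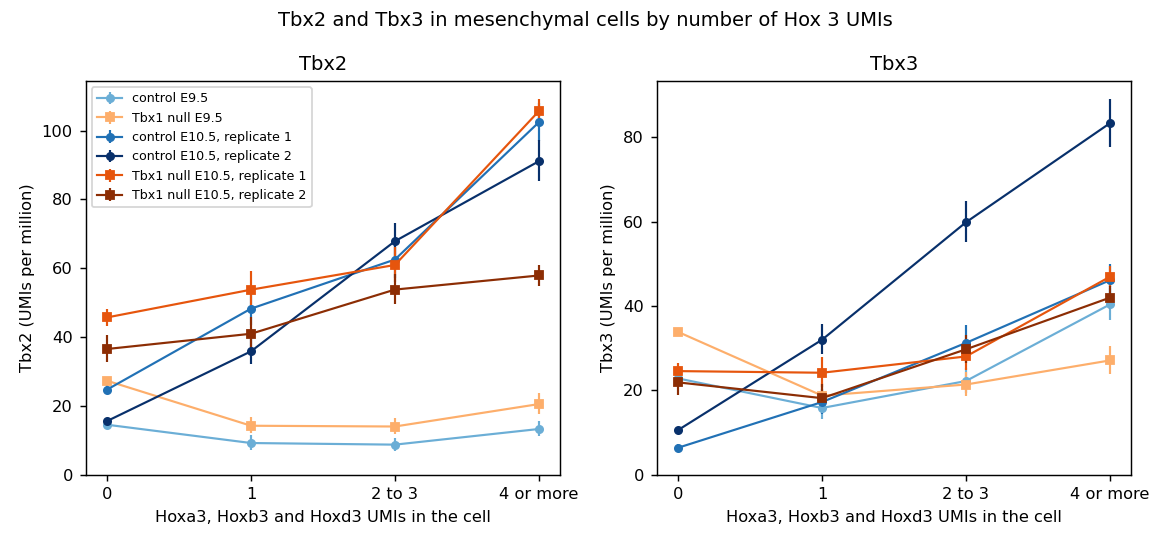
Level of Tbx2 and Tbx3 in CPM in mesenchymal cells of the E9.5 and E10.5 libraries, by the number of Hox 3 UMIs of the cell (0, 1, 2 to 3, 4 or more), with 1 line per library. In the E10.5 controls both genes are higher at every step, Tbx3 going from 6.42 and 10.6 CPM to 46.1 and 83.4 CPM. In the E10.5 null libraries Tbx3 starts at 24.6 and 21.9 CPM.

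At E9.5 the Hox 3 cells were not called higher than the others. Tbx2 was at 10.5 CPM with and 14.5 CPM without a Hox 3 UMI in the control and at 16.1 and 27.3 CPM in the null library. Tbx3 was at 26.9 and 22.8 CPM in the control and 22.3 and 33.9 CPM in the null library. Tbx2 was lower with a Hox 3 UMI in both libraries, and Tbx3 went opposite ways. By the number of Hox 3 UMIs (0, 1, 2 to 3, 4 or more), Tbx3 was at 22.8, 15.8, 22.2 and 40.4 CPM in the E9.5 control and at 33.9, 18.8, 21.4 and 27.1 CPM in the E9.5 null library. In the control it was thus highest in the cells with 4 or more, and in the null library in those with 0. The edgeR test called 0 of 3 genes at E9.5, beside 16.5% of all genes. Of the 3, 2 were at an unadjusted p under 0.05, and Tbx2 ranked 4625 of 14071 by p. DESeq2 called 1 of the 3 and 1469 genes in all. The log2 differences were -0.72 for Tbx2 (-1.42 to -0.01, adjusted p = 0.147), -0.27 for Tbx3 (-1.28 to 0.73, adjusted p = 0.700) and -2.33 for Tbx20 (-4.10 to -0.55, adjusted p = 0.0750). With no filter on low counts Tbx2 was called (-0.81, adjusted p = 0.0141). Tbx20 was called at E9.5 in 5 of 14 alternatives, by DESeq2 (-2.38, adjusted p = 0.00692), with no filter on low counts (-2.42, adjusted p = 0.00829), with doublets kept (-2.20, adjusted p = 0.0188) and without E10.5 control replicate 2 (-2.33, adjusted p = 0.0310) or null replicate 2 (-2.33, adjusted p = 0.0463). The difference between the stages was itself tested and was 2.04 for Tbx2 (1.18 to 2.89, adjusted p = 0.0337), beside 2.45% of all genes, and 1.85 for Tbx3 (0.57 to 3.13, adjusted p = 0.135). Arch 1 was taken at E9.5 and removed at E10.5, so the cells without a Hox 3 UMI differ in make-up between the stages. The Tbx3 difference was called in 4 of 14 alternatives, after thinning (1.52, adjusted p = 0.000572), with no filter on low counts (1.93, adjusted p = 0.00673), with neuron-transcript cells left out (2.06, adjusted p = 0.0266) and with at least 5 UMIs required of mesenchymal cells (1.84, adjusted p = 0.0431). The Tbx2 call of this difference was lost without E10.5 control replicate 1 (1.93, adjusted p = 0.0847) or with at least 2 Hox 3 UMIs required (1.94, adjusted p = 0.0519).

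Within the Hox 3 cells the 3 genes were higher where Hand2, a transcription factor of the ventral arches and the outflow tract, was also seen, a split chosen after the levels were known and given as values only. At E10.5 Tbx2 was at 109 and 77.7 CPM in Hox 3 cells with a Hand2 UMI and 56.0 and 56.6 CPM without one in the controls, and at 137 and 95.1 CPM and 66.3 and 38.2 CPM in the null libraries. Tbx3 was at 55.3 and 73.8 CPM with and 20.3 and 48.4 CPM without a Hand2 UMI in the controls, and at 64.9 and 55.0 CPM with and 27.8 and 26.7 CPM without in the null libraries. Cells with a Hand2 UMI were higher for Tbx2 and Tbx3 in all 4 libraries. Tbx20 in the Hox 3 cells was at 7.12 and 13.8 CPM with a Hand2 UMI in the controls and 4.73 and 12.3 CPM in the null libraries, and at 0.11 and 0.055 CPM and 0.30 and 0.46 CPM without. Over all mesenchymal cells, those with a UMI of Dlx2, a homeobox gene of arch mesenchyme, had Tbx2 at 54.0 and 31.5 CPM in the controls and 95.6 and 92.3 CPM in the null libraries, and those without had 28.7 and 25.0 CPM and 17.1 and 21.9 CPM. The null libraries thus lay above the controls in the Dlx2 cells and below them in the cells without Dlx2, a difference that was not tested.

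Foxf1, a forkhead factor that responds to Hedgehog signals in the arch mesenchyme, set apart Tbx3 more at E9.5 than at E10.5. At E9.5 Tbx3 was at 44.7 CPM in Foxf1 cells and 22.5 CPM in the other mesenchymal cells of the control, and at 53.8 and 29.6 CPM in the null library. At E10.5 it was at 20.1 against 16.8 and 26.8 against 22.8 CPM in the controls and at 38.6 against 32.8 and 35.1 against 31.5 CPM in the null libraries. Foxf1 cells were higher in all 6 libraries, by a narrow margin at E10.5. The log2 difference was 0.90 at E9.5 (0.74 to 1.05, adjusted p = 0.000109) and 0.21 at E10.5 (0.10 to 0.33, adjusted p = 0.0133), beside 4.75% and 21.8% of all genes. The difference between the stages was -0.68 (-0.87 to -0.49, adjusted p = 0.00499), beside 1.25%. The small E10.5 difference was not called without control replicate 1 (0.21, adjusted p = 0.0560) or null replicate 1 (0.20, adjusted p = 0.0670), nor by DESeq2 (0.21, adjusted p = 0.0655) or with at least 2 Foxf1 UMIs required (0.03, adjusted p = 0.777). With every cell thinned to 5000 UMIs before it was assigned to a group, Tbx3 was at 0.66 at E9.5 (adjusted p = 0.137) and -0.25 at E10.5 (adjusted p = 0.377), and the difference between the stages was no longer called (-0.91, adjusted p = 0.0840).

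For Tbx2 the Foxf1 cells were higher at E9.5, at 20.9 against 13.2 CPM in the control and 33.6 against 24.4 CPM in the null library (log2 difference 0.52, 0.26 to 0.78, adjusted p = 0.0368). The call was lost after thinning (0.12, adjusted p = 0.953) and in 4 more of 13 alternatives. These were at least 2 Foxf1 UMIs required (0.46, adjusted p = 0.147), at least 5 UMIs required of mesenchymal cells (0.34, adjusted p = 0.312), cells of other markers left out (0.51, adjusted p = 0.0688) and cells kept from 200 genes up and to 5% mitochondrial UMIs (0.52, adjusted p = 0.0509). At E10.5 they were at 49.2 against 44.6 and 29.7 against 28.5 CPM in the controls and at 60.5 against 74.9 and 54.8 against 49.7 CPM in the null libraries, with no common direction. The log2 difference had an interval of -0.17 to 0.16 (adjusted p = 0.987). Of 13 alternatives 1 gained the call, and over all of them the value ran from -0.46 to 0.10, with a lowest adjusted p of 0.0120. The difference between the stages was -0.52 (-0.83 to -0.21, adjusted p = 0.120), and it was called by DESeq2 (-0.57, adjusted p = 0.0337), with no filter on low counts (-0.45, adjusted p = 0.0381) and with doublets kept (-0.51, adjusted p = 0.0387). With edgeR, Tbx20 did not pass at E10.5 (-0.60, adjusted p = 0.370), at E9.5 (2.34, adjusted p = 0.145) or for the difference between the stages (-2.94, adjusted p = 0.174). DESeq2 called it at E9.5 (2.39, adjusted p = 0.00477) and for the difference (-3.10, adjusted p = 0.00348), as did edgeR with no filter on low counts (2.26, adjusted p = 0.00936, and -2.87, adjusted p = 0.00673). Without null replicate 1 it was called lower in the Foxf1 cells at E10.5 (-1.34, adjusted p = 0.00621) and higher at E9.5 (2.34, adjusted p = 0.0101), with a called difference between the stages (-3.68, adjusted p = 0.00541).

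Among the cells without a Hox 3 UMI, those with Hoxa2, the Hox gene of the second arch, changed place with the Hoxa2-negative cells between the stages for Tbx2. At E9.5 Tbx2 was at 9.45 CPM with and 15.9 CPM without Hoxa2 in the control and at 15.0 and 29.7 CPM in the null library. At E10.5 it was at 28.4 with and 16.9 without, and 17.4 with and 12.7 without, in the controls, and at 52.1 with and 23.2 without, and 35.3 with and 39.1 without, in null replicates 1 and 2. Hoxa2 cells were lower in both E9.5 libraries and higher in 3 of 4 at E10.5, null replicate 2 being the exception. The log2 difference was -0.96 at E9.5 (-1.40 to -0.52, adjusted p = 0.0189) and 0.67 at E10.5 (0.33 to 1.01, adjusted p = 0.0130), beside 6.79% and 20.2% of all genes. The change between the stages was 1.63 (1.08 to 2.18, adjusted p = 0.00232), beside 22.8%. The E10.5 difference was not called without control replicate 1 (0.61, adjusted p = 0.0930) or after thinning to 5000 UMIs (0.21, adjusted p = 0.312). Tbx3 was lower in Hoxa2 cells at E9.5, at 12.6 against 25.6 CPM and 21.1 against 36.4 CPM (-0.98, -1.48 to -0.48, adjusted p = 0.0301). It did not pass at E10.5 (-0.19, adjusted p = 0.583), where leaving out null replicate 1 gave a called -0.55 (adjusted p = 0.00912) and leaving out control replicate 2 gave 0.13 (adjusted p = 0.753). Its change between the stages was 0.80 (adjusted p = 0.0868) and was called without control replicate 2 (1.11, adjusted p = 0.0309), after thinning (0.84, adjusted p = 0.0192) and with no filter on low counts (0.94, adjusted p = 1.9e-11). Tbx20 was lower in the Hoxa2 cells at E10.5, at 0.93 against 18.9 and 0.59 against 15.4 CPM in the controls and 1.26 against 15.8 and 11.5 against 18.4 CPM in the null libraries (-3.31, -4.43 to -2.19, adjusted p = 0.00222). It was lower in all 4 libraries, by the least in null replicate 2. The Hoxa2-negative group here includes Acta2/Tagln and Foxf1 cells. With these cells taken out of both groups, Tbx20 averaged 0.090 against 0.35 CPM in the E10.5 controls. In the E10.5 null libraries it then averaged 0.27 against 1.77 CPM. This difference, from the test of 5 classes described below, was not called (-1.79, -3.77 to 0.19, adjusted p = 0.370). With all cells of both groups, Tbx20 at E9.5 was at 0.88 against 0.67 CPM in the control. It was at 0.57 against 0.55 CPM in the null library (0.16, adjusted p = 0.948). With the same cells, the change between the stages was -3.47 (adjusted p = 0.0619). That change was called by DESeq2 (-3.54, adjusted p = 0.0245), without null replicate 2 (-4.35, adjusted p = 0.000203), with no filter on low counts (-3.32, adjusted p = 1.8e-17) and with cells of other markers left out (-3.08, adjusted p = 0.0304).

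Divided into 5 classes that share no cells, taken in the order Acta2/Tagln, Foxf1, Hox 3, Hoxa2 and none of these, the E10.5 mesenchyme gave Tbx2, averaged over both genotypes, the order Hox 3, Foxf1, Acta2/Tagln, Hoxa2 and none. The class means were 71.1 ± 16.8, 49.7 ± 15.2, 36.1 ± 8.58, 34.9 ± 16.5 and 22.0 ± 9.57 CPM (SD, n = 4 libraries). Neither genotype alone had this order between its ends. The controls averaged 70.1, 38.7, 40.5, 22.4 and 15.4 CPM in the same classes, so that Acta2/Tagln came before Foxf1, and the null libraries 72.2, 60.8, 31.6, 47.4 and 28.5 CPM, so that Hoxa2 came before Acta2/Tagln. Tbx2 in the Hox 3 class was above the Hoxa2 class (log2 difference 1.11, adjusted p = 0.00236), the Acta2/Tagln class (0.99, adjusted p = 0.00488) and the class with none (1.86, adjusted p = 0.000138). Both the Foxf1 class (1.31, adjusted p = 0.00355) and the Acta2/Tagln class (0.87, adjusted p = 0.0324) were above the class with none. No neighbours in this order passed the adjusted test. Foxf1 minus Hox 3 was -0.56 (-1.02 to -0.09, unadjusted p = 0.0223, adjusted p = 0.0755), Acta2/Tagln minus Foxf1 -0.44 (adjusted p = 0.227), Acta2/Tagln minus Hoxa2 0.11 (adjusted p = 0.773) and Hoxa2 minus none 0.76 (0.19 to 1.32, unadjusted p = 0.0117, adjusted p = 0.173). Of 13634 genes tested, the Hox 3 class differed in 10.4% from the class with none, in 15.8% from the Hoxa2 class, in 25.7% from the Foxf1 class and in 47.1% from the Acta2/Tagln class. The Foxf1 class differed in 11.6% from the class with none and in 16.4% from the Hoxa2 class. The Acta2/Tagln class differed in 40.9% from the Foxf1 class, 41.2% from the class with none and 49.2% from the Hoxa2 class, and the Hoxa2 class in 1.48% from the class with none.

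For Tbx3 the order over both genotypes was Hox 3, Foxf1, Acta2/Tagln, none and Hoxa2, with class means of 41.8 ± 12.1, 30.8 ± 9.33, 21.8 ± 4.56, 14.9 ± 5.55 and 13.6 ± 8.59 CPM (SD, n = 4 libraries). The controls had this order, at 46.6, 23.2, 23.1, 11 and 6.23 CPM. The null libraries averaged 37.1, 38.3, 20.5, 18.7 and 20.9 CPM in the same classes, with Foxf1 first and none last. Its Hox 3 class was above the Hoxa2 class by 1.84 (adjusted p = 0.000180), above the class with none by 1.62 (adjusted p = 0.00154) and above the Acta2/Tagln class by 0.99 (adjusted p = 0.0147). Its Foxf1 class was above the Hoxa2 class by 1.36 (adjusted p = 0.00334) and the class with none by 1.14 (adjusted p = 0.0225). Neighbours again did not pass, with Foxf1 minus Hox 3 at -0.48 (adjusted p = 0.187), Acta2/Tagln minus Foxf1 at -0.51 (adjusted p = 0.239), Acta2/Tagln minus none at 0.63 (adjusted p = 0.185) and Hoxa2 minus none at -0.22 (adjusted p = 0.822).

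Tbx20 was the gene of the Acta2/Tagln cells, the mesenchymal NCCs with at least 5 UMIs of Acta2 and Tagln, which encode actin and an actin-binding protein of smooth muscle. At E8.5 it was at 6.85 CPM in these cells, from 2 UMIs in 1 cell that also held a UMI of the heart muscle gene Tnnt2. It was at 20.6 and 11.6 CPM in the E9.5 control and null libraries, at 120 and 154 CPM in the E10.5 controls and at 59.7 and 83.9 CPM in the E10.5 null libraries. It was at 0.04, 0.15, 0.29, 0.28, 0.27, 0.67 and 0.83 CPM in the other mesenchymal cells of the same libraries. These 101 to 233 cells per E9.5 or E10.5 library, and 11 at E8.5, held 91.5% and 92.2% of all Tbx20 UMIs of the E10.5 controls, 68.1% and 65.1% of those of the E10.5 null libraries, 72.4% and 40.2% at E9.5 and 22.2% of the 9 UMIs at E8.5. The log2 difference was 7.70 at E10.5 (6.83 to 8.58, adjusted p = 1.67e-07) and 5.96 at E9.5 (4.33 to 7.59, adjusted p = 0.000491), beside 38.9% and 19.2% of all genes. The difference between the stages was 1.74 (-0.05 to 3.54, adjusted p = 0.279), and edgeR called 0 of 3 genes in it, with 0 at an unadjusted p under 0.05 and 0 by DESeq2, beside 2.56% of all genes. Thinned to 5000 UMIs, 27.0% and 32.2% of Acta2/Tagln cells in the E10.5 controls and 15.7% and 23.8% in the null libraries had a Tbx20 UMI (48.7%, 50.2%, 35.3% and 44.1% unthinned), against 0% to 0.46% of the other mesenchymal cells.

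Tbx20 followed the number of Acta2 and Tagln UMIs. In control replicate 2 it was at 0.18, 1.73, 23.5, 94.6 and 205 CPM in mesenchymal cells with 0, 1 to 4, 5 to 9, 10 to 19 and 20 or more of these UMIs, and in control replicate 1 at 0.22, 1.10, 5.84, 34.2 and 162 CPM. In the null libraries it was at 0.58, 1.70, 6.65, 36.2 and 111 CPM in replicate 1 and at 0.48, 3.05, 2.46, 29.1 and 136 CPM in replicate 2. In all 4 libraries the level was highest in the cells with 20 or more UMIs, where both controls lay above both null libraries, and in the cells with 0 UMIs both null libraries lay above both controls. At E9.5 the cells with 20 or more UMIs had 39.4 CPM in the control and 22.1 CPM in the null library. The 10 cardiomyocyte markers summed to 2970 and 6195 CPM in these E9.5 cells, and in the cells with 20 or more UMIs at E10.5 to 2886 and 57.1 CPM in the controls and 49.6 and 361 CPM in the null libraries.

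**Figure D3:**
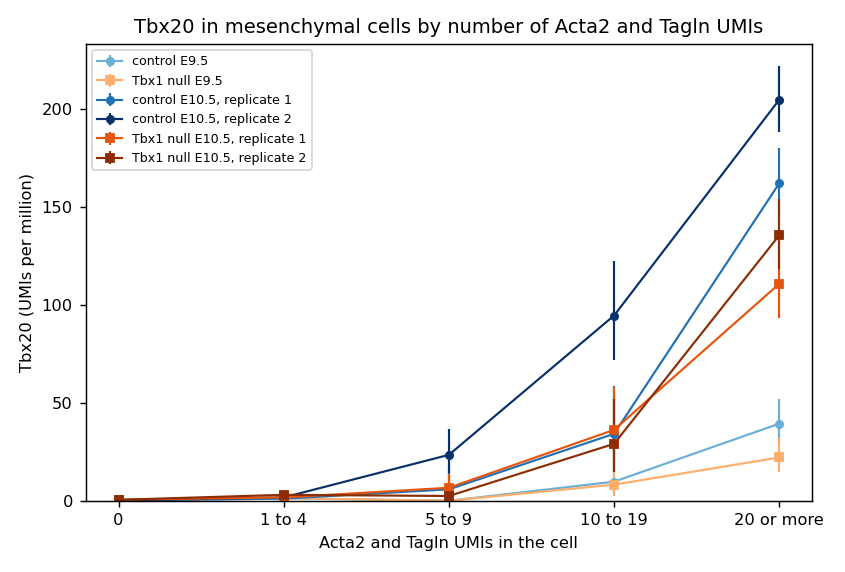
Level of Tbx20 in CPM in mesenchymal cells of the E9.5 and E10.5 libraries by the summed Acta2 and Tagln UMIs of the cell (0, 1 to 4, 5 to 9, 10 to 19, 20 or more), with 1 line per library. The E10.5 controls end at 162 and 205 CPM, the E10.5 null libraries at 111 and 136 CPM and the E9.5 libraries at 39.4 and 22.1 CPM.

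The Acta2/Tagln cells were not uniform. Those without a Hox 3 UMI held Tbx20 at 224 and 223 CPM in the E10.5 controls and 87.5 and 118 CPM in the null libraries, and those with a Hox 3 UMI held 44.5 and 76.1 CPM and 34.4 and 66.7 CPM. Cells with a Foxf1 UMI held 18.0 and 17.2 CPM in the controls and 39.0 and 23.4 CPM in the null libraries, and those without held 155 and 193 CPM in the controls and 78.8 and 108 CPM. Tbx20 was thus lower in the Hox 3-positive and in the Foxf1-positive Acta2/Tagln cells of all 4 libraries. Tbx2 went the opposite way by Hox 3 in 3 of 4 libraries, at 67.7 and 59.5 CPM with and 14.7 and 14.9 CPM without in the controls. It was at 31.7 CPM with and 17.1 CPM without in null replicate 1, and 37.0 with and 41.6 without in null replicate 2.

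Some Acta2/Tagln cells carried transcripts listed as markers of other cell types. The 10 cardiomyocyte markers summed to 2052 and 52.1 CPM in E10.5 control replicates 1 and 2 and 324 and 222 CPM in the null libraries. In control replicate 2, Tnni1 alone was at 46.2 CPM. The 5 epithelium markers summed to 203 and 181 CPM in the controls and 283 and 268 CPM in the null libraries. Of these sums Krt18 made 104 and 106 CPM in the controls and Krt8 154 and 147 CPM in the null libraries. Of the 5 epithelium markers, 2 were at 0 in both controls and in null replicate 2, and 1 in null replicate 1. With every cell that held at least 3 UMIs of heart muscle, endothelium or epithelium markers left out, 43 and 101 Acta2/Tagln cells of the E10.5 controls and 44 and 43 of the null libraries remained. The cardiomyocyte markers were at 6.70 to 11.9 CPM in the controls and 7.71 to 11 CPM in the null libraries. Tbx20 was at 28.5 and 33.4 CPM in the remaining cells of the controls and 6.00 and 9.14 CPM of the null libraries, and at 178 and 233 CPM and 97.4 and 130 CPM in the cells left out. The difference from the other mesenchymal cells was still called at E10.5 (5.92, adjusted p = 2.6e-05) and was not at E9.5 (3.77, adjusted p = 0.245). Leaving out only cells with a UMI of Tnnt2, the troponin T of heart muscle, left Tbx20 at 100.3 and 149 CPM in the controls and 58.9 and 84.8 CPM in the null libraries.

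With edgeR as run here, Tbx2 and Tbx3 were not called between the Acta2/Tagln cells and the other mesenchymal cells. At E10.5 Tbx2 was at 45.3 against 45.3 and 35.7 against 28.4 CPM in the controls and 24.7 against 74.0 and 38.5 against 51.3 CPM in the null libraries, and the log2 difference was -0.41 (-0.90 to 0.09, adjusted p = 0.180). It was called with no filter on low counts (-0.48, adjusted p = 0.00961), after thinning (-0.56, adjusted p = 0.0411) and with at least 5 UMIs required of mesenchymal cells (-0.74, adjusted p = 0.0443). With cells holding heart muscle, endothelium or epithelium transcripts left out it was 0.37 (adjusted p = 0.383). That of Tbx3 was -0.29 (-0.65 to 0.08, adjusted p = 0.195). It was called without control replicate 2 (-0.50, adjusted p = 0.0465), with no filter (-0.36, adjusted p = 0.0364) and with the Acta2/Tagln limit at 10 UMIs (-0.60, adjusted p = 0.0390), and was 0.30 (adjusted p = 0.285) with the same cells left out. At E9.5 Tbx2 was at -0.93 (adjusted p = 0.156) and was called without E10.5 null replicate 1 (-0.93, adjusted p = 0.0113) and with no filter (-1.08, adjusted p = 0.00237). Tbx3 was at -0.55 (adjusted p = 0.136) and was called with no filter (-0.71, adjusted p = 0.00473).

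Listed genes of heart and smooth muscle were higher in the Acta2/Tagln cells along with Tbx20. In this comparison 38.9% of all genes were called at E10.5. All 10 cardiac factors tested were higher, with a median log2 difference of 3.18 beside -0.03 over all genes, among them the GATA factors Gata4 (6.87), Gata5 (6.19) and Gata6 (5.41) and Tbx5 (3.78), a T-box factor of the atria and left ventricle. All 7 smooth muscle genes tested were higher, with a median of 2.15, among them the actin-binding calponin Cnn1 (7.57), the myosin light chain Myl9 (4.63) and the pericyte gene Rgs5 (4.15). Of 6 T-box genes besides the 3 described, Tbx5, Tbx1 (2.27) and Tbx18 (1.16) were higher and Tbx15 (-3.01) was lower. Of 9 BMP response genes 4 were higher and 1 was lower, with the inhibitor Smad6 at 2.87 and the homeobox gene Msx1 at -1.82. Among 6 genes listed as targets of Tbx2 or Tbx3, the cell cycle inhibitors Cdkn1a (2.48) and Cdkn2b (0.87) were higher and the gap junction gene Gja1 (-1.07) was lower, while Tbx2 and Tbx3 themselves did not pass with edgeR as run here.

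The same lists were read in the Hox 3 split, where Tbx2 and Tbx3 were higher, and the lists were not tested between the splits. At E10.5 6 of 9 BMP response genes were higher in the Hox 3 cells and 0 were lower, with a median log2 difference of 0.52 beside -0.01 over all genes, among them the inhibitors of bHLH factors Id3 (0.73) and Id1 (0.70) and the homeobox genes Msx2 (0.73) and Msx1 (0.67). Of 6 targets, 2 were lower, Cdkn2b (-1.11) and Gja1 (-0.50), and 0 were higher. In this comparison 14.7% of all genes were called. Of 9 cardiac factors the MADS-box gene Mef2c (1.40) was higher and the homeobox gene Nkx2-5 (-1.14) and Hand2 (-0.70) were lower, and of 9 smooth muscle genes only Smtn (0.29) passed. Of the other T-box genes Tbx15 (1.87), Tbx1 (1.61) and Tbx3os1 (2.08) were higher and Tbx18 (-1.21) was lower. Cell Ranger by default counts only reads in the sense direction of a gene, which separates Tbx3os1 from Tbx3, and its settings are not given in the sources used here. The mesoderm genes Tcf21 (1.90) and Osr1 (0.85) were also higher, 2 of 3 tested.

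Outside the mesenchyme, Tbx2 and Tbx3 were also found in Sox10 cells, the glial and migrating NCCs. Tbx2 was at 0.46 CPM at E8.5, 0.98 and 2.38 CPM in the E9.5 control and null libraries, 12.8 and 13.1 CPM in the E10.5 controls and 26.5 and 39.8 CPM in the E10.5 null libraries. Tbx3 was at 5.36 CPM at E8.5, 4.28 and 8.98 CPM at E9.5, 13.1 and 17.6 CPM in the E10.5 controls and 17.9 and 30.7 CPM in the E10.5 null libraries. For both genes the E10.5 null libraries lay above the E10.5 controls, which lay above the E9.5 libraries. Mesenchymal cells had more Tbx2 than Sox10 cells at E10.5 by 1.09 (0.55 to 1.64, adjusted p = 0.00903) and more Tbx20 by 2.48 (1.62 to 3.34, adjusted p = 0.00207), beside 40.3% of all genes. Tbx3 was at 0.42 (0.09 to 0.76, adjusted p = 0.0512) and was called without null replicate 2 (0.61, adjusted p = 0.00865). The Tbx20 difference was -0.48 (adjusted p = 0.490) with cells holding heart muscle, endothelium or epithelium transcripts left out. Against neural progenitors the mesenchymal cells were higher for all 3 genes, by 5.69 (4.83 to 6.54, adjusted p = 0.000143) for Tbx2, 5.86 (5.28 to 6.45, adjusted p = 6.22e-05) for Tbx3 and 6.46 (5.38 to 7.55, adjusted p = 0.000197) for Tbx20, beside 43.4% of all genes. Tbx20 was at 4.26 (adjusted p = 0.00314) with the same cells left out.

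Neurons with an Isl1 UMI, a mark of motor and sensory neurons, had Tbx3 at 8.72, 67.1, 9.11 and 35.7 CPM in 54, 94, 20 and 324 cells of the control and then the null libraries at E10.5, so that replicates of a group differed more than the groups.

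Between genotypes at E10.5, none of the 3 genes passed the test over all mesenchymal NCCs. Tbx2 averaged 37.0 ± 11.8 CPM in the controls and 61.4 ± 15.3 CPM in the null libraries (SD, n = 2 each), Tbx3 20.3 ± 4.17 and 33.0 ± 1.24 CPM, and Tbx20 5.63 ± 0.645 and 4.15 ± 1.94 CPM. The groups did not overlap for Tbx2 and Tbx3 and overlapped for Tbx20. The share of all genes without overlap between the groups was not counted, so overlap is given here and below as a description only. The log2 differences (null minus control) were 0.57 for Tbx2 (-0.20 to 1.34, adjusted p = 0.439), 0.51 for Tbx3 (-0.06 to 1.09, adjusted p = 0.373) and -0.66 for Tbx20 (-1.47 to 0.15, adjusted p = 0.403). edgeR called 0 of 3, with 0 at an unadjusted p under 0.05 and 0 by DESeq2, beside 0.126% of 15885 genes. Because the Hox 3 cells made up more of the null mesenchyme, the means were also computed with the 5 classes weighted by their shares in the controls. The log2 ratio of the means went from 0.73 to 0.49 for Tbx2, from 0.70 to 0.38 for Tbx3 and from -0.44 to -0.64 for Tbx20. Of 9 BMP response genes edgeR called 0 over all mesenchymal cells, with 2 by DESeq2 and 3 at an unadjusted p under 0.05. Over all genes DESeq2 called 722, and Tbx3, at an unadjusted p of 0.0734 by edgeR, ranked 3125 of 15885. The median log2 difference of the 9 was 0.58 beside -0.02 over all genes. Of the 5 neuron markers edgeR called 0, with 1 by DESeq2 and 5 at an unadjusted p under 0.05, and their median was 2.69.

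Within the Hox 3 cells the genotypes overlapped for Tbx2 and Tbx3, and outside them they did not. In the Hox 3 cells Tbx2 was at 71.0 ± 8.69 CPM in the controls and 71.2 ± 24.8 CPM in the null libraries and Tbx3 at 46.3 ± 17.0 and 37.0 ± 3.71 CPM (SD, n = 2 each). In the cells without a Hox 3 UMI Tbx2 was at 20.2 ± 6.47 and 41.1 ± 6.49 CPM and Tbx3 at 8.51 ± 2.96 and 23.2 ± 1.89 CPM. The null libraries lay above both controls for both genes in these cells. The test of this difference itself, the change by genotype in Hox 3 cells minus that in the other mesenchymal cells, gave -1.78 for Tbx3 (-1.99 to -1.56, adjusted p = 0.00236), the lowest p of the 14431 genes tested, of which 0.326% were called. For Tbx2 it was -1.07 (-1.49 to -0.64, adjusted p = 0.0867), and DESeq2 called it (-1.10, adjusted p = 4.19e-06), as did edgeR with no filter on low counts (-1.01, adjusted p = 2.97e-06), after thinning (-0.66, adjusted p = 0.00257) and with at least 5 UMIs required of mesenchymal cells (-0.74, adjusted p = 0.0134). The Tbx3 value stayed between -1.79 and -1.72 when any E10.5 library was left out. The Tbx2 value was -1.25 without control replicate 1 and -1.29 without null replicate 1. For Tbx20 the edgeR value was -1.02 (-1.87 to -0.17, unadjusted p = 0.0253, adjusted p = 0.390), and it was called in 1 of 14 alternatives. With every cell thinned to 5000 UMIs before grouping, Tbx3 was at -0.88 (adjusted p = 0.00143). Leaving out cells with neuron transcripts gave -1.63 for Tbx3 (adjusted p = 0.000182) and -0.80 for Tbx2 (adjusted p = 0.00652).

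**Figure D4:**
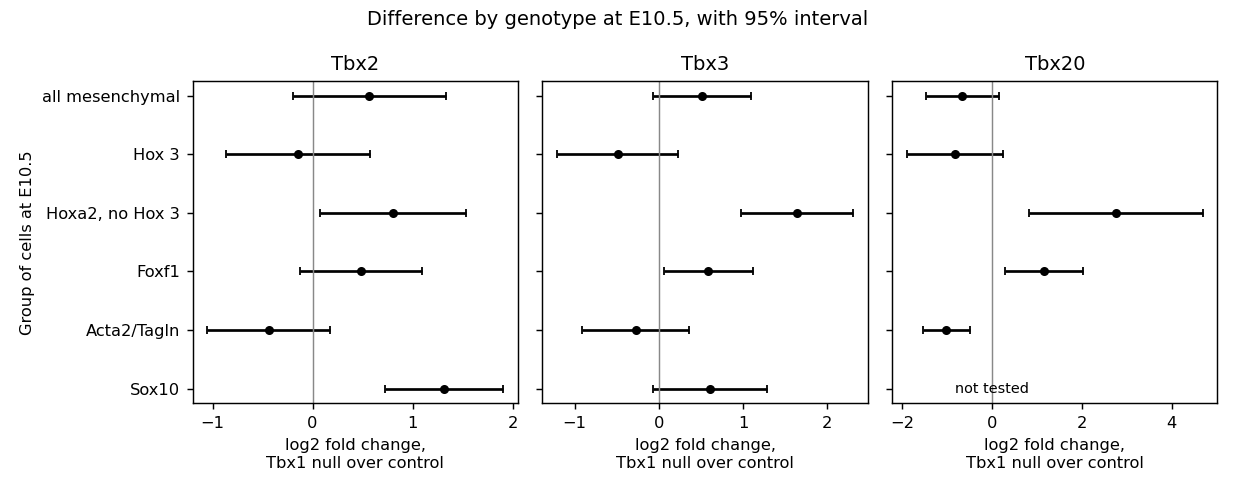
Log2 difference of Tbx2, Tbx3 and Tbx20 by genotype (null minus control) at E10.5, with its 95% confidence interval. The groups are all mesenchymal, Hox 3, Hoxa2 without Hox 3, Foxf1, Acta2/Tagln and Sox10 cells. Tbx3 is at 1.64 (0.98 to 2.30) in the Hoxa2 cells and Tbx20 at -1.02 (-1.55 to -0.49) in the Acta2/Tagln cells. No difference shown passed the adjusted test, and Tbx20 was not tested in the Sox10 cells.

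The summed transcripts of the Hox 4 genes, which are expressed caudal to the Hox 3 border, were at 4.99 to 7.51 CPM in the cells without a Hox 3 UMI in the controls and 7.68 to 39.4 CPM in the null libraries. Their part in the Tbx2 and Tbx3 difference was not tested. Besides Tbx3, Hand2 (-0.61, adjusted p = 0.0396) was the only gene of the lists that passed the same test. Within the cells without Hox 3, Tbx3 was at 10.2 and 17.7 CPM with a Hand2 UMI in the controls and 33.5 and 35.0 CPM in the null libraries, and at 3.20 and 4.90 CPM and 17.3 and 11.9 CPM without one. The null libraries lay above both controls in both subsets.

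The same direction was seen in the Hoxa2 cells without Hox 3 transcripts, a group tested after the levels were known. Tbx3 was at 5.66 and 8.24 CPM in the controls and 26.8 and 21.1 CPM in the null libraries, Tbx2 at 28.4 and 17.4 CPM and 52.1 and 35.3 CPM, and Tbx20 at 0.93, 0.59, 1.26 and 11.5 CPM. The groups did not overlap for any of the 3, and the share of all genes without overlap was not counted. With the Acta2/Tagln and Foxf1 cells taken out of this group, Tbx20 was at 0.11 and 0.067 CPM in the controls and 0.30 and 0.24 CPM in the null libraries, from 1 to 5 UMIs each. The 5 epithelium markers summed to 20.8 and 14.7 CPM in the Hoxa2 cells of the controls and 20.9 and 72.1 CPM in those of null replicates 1 and 2. The log2 differences were 1.64 for Tbx3 (0.98 to 2.30, adjusted p = 0.0858), 0.80 for Tbx2 (0.07 to 1.53, adjusted p = 0.336) and 2.76 for Tbx20 (0.83 to 4.69, adjusted p = 0.226). edgeR called 0 of 3, beside 0.284% of all genes. All 3 were at an unadjusted p under 0.05, and DESeq2 called 2 of the 3. The Tbx3 value was 1.95 without control replicate 2, 1.39 without null replicate 1 and 1.86 without null replicate 2. The Tbx2 value was 1.11 without null replicate 2. That of Tbx20 was 3.1 without control replicate 1, 3.74 without null replicate 1 and 0.68 without null replicate 2. These fits leave 1 library in a genotype group, so their calls are not given. Of the 9 BMP response genes edgeR called 0 in these cells, with 7 by DESeq2 and 8 at an unadjusted p under 0.05. Over all genes DESeq2 called 343, and Tbx2, at an unadjusted p of 0.0346 by edgeR, ranked 1413 of 13732. The median log2 difference of the 9 was 1.00 beside -0.01 over all genes. The 5 neuron markers had a median of 2.05 in the same test. With cells holding neuron transcripts left out, Tbx3 was at 1.65 (adjusted p = 0.118), Tbx2 at 0.72 (adjusted p = 0.506) and Tbx20 at 2.10 (adjusted p = 0.331). With cells holding heart muscle, endothelium or epithelium transcripts left out, Tbx20 was at 1.89 (adjusted p = 0.342). Of 8 cardiac factors the zinc finger gene Gata3 (2.20, adjusted p = 0.0499) was called higher.

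In the Acta2/Tagln cells Tbx20 was lower in the null libraries, at 137 ± 24.3 CPM in the controls and 71.8 ± 17.2 CPM in the null libraries (SD, n = 2 each), without overlap. The log2 difference was -1.02 (-1.55 to -0.49) with an unadjusted p of 0.00109 and an adjusted p of 0.104 by edgeR. edgeR called 0 of 3 genes, beside 0.498% of all genes. Only Tbx20 was at an unadjusted p under 0.05, ranking 114 of 10836 by p. DESeq2 called 0 of the 3 and 61 genes in all. The Tbx20 value was -1.17 without control replicate 1 and -1.31 without null replicate 2. Tbx20 was called by edgeR with cells holding transcripts of heart muscle, endothelium or epithelium left out (-2.15, adjusted p = 0.0120). It was then at 30.9 ± 3.50 CPM in the controls and 7.57 ± 2.22 CPM in the null libraries. In cells with 20 or more Acta2 and Tagln UMIs it was at 183 ± 30.2 and 123 ± 17.5 CPM. Tbx2, at 40.5 ± 6.83 and 31.6 ± 9.75 CPM, and Tbx3, at 23.1 ± 6.83 and 20.5 ± 2.96 CPM, overlapped between the genotypes in the Acta2/Tagln cells.

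In the Foxf1 cells Tbx20 was in the other direction, at 1.77 and 2.14 CPM in the controls and 5.22 and 3.79 CPM in the null libraries, without overlap (1.15, 0.28 to 2.02, adjusted p = 0.340). Tbx3 in these cells was at 23.4 ± 4.79 and 36.8 ± 2.5 CPM (0.59, 0.06 to 1.11, adjusted p = 0.393) and Tbx2 at 39.5 ± 13.8 and 57.7 ± 4.00 CPM (0.49, -0.12 to 1.09, adjusted p = 0.519). edgeR called 0 of 3, beside 0.0551% of all genes. Tbx20 and Tbx3 were at an unadjusted p under 0.05, ranking 553 and 1019 of 12709 genes by p. DESeq2 called 0 of the 3 and 112 genes in all. Without null replicate 2 the Tbx20 value was 1.38. The change of the genotype difference with Foxf1 was 2.14 for Tbx20 (1.04 to 3.24, adjusted p = 0.0643). In this test edgeR called 0 of 3, beside 1.88% of all genes. Only Tbx20 was at an unadjusted p under 0.05, ranking 318 of 14006 by p. DESeq2 called 0 of the 3 and 256 genes in all. Without null replicate 2 the change was 2.97 for Tbx20 and -0.35 for Tbx2. Tbx20 was called by edgeR with no filter on low counts (2.12, adjusted p = 1.0e-11), and Tbx2 with at least 5 UMIs required of mesenchymal cells (-0.60, adjusted p = 0.00707). The heart muscle genes Myl4 (4.5), Myl7 (4.26) and Tnnt2 (3.98) were called higher in the same test. With cells holding heart muscle, endothelium or epithelium transcripts left out, the Tbx20 value was 2.02 (adjusted p = 0.172).

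In the Hox 3 cells edgeR called 0 of 3 genes between genotypes, with 0 at an unadjusted p under 0.05 and 0 by DESeq2, beside 0.068% of all genes. The log2 differences were -0.14 for Tbx2 (-0.86 to 0.58), -0.49 for Tbx3 (-1.21 to 0.23) and -0.83 for Tbx20 (-1.90 to 0.23). In the Sox10 cells Tbx2 was at 13.0 ± 0.170 CPM in the controls and 33.1 ± 9.45 CPM in the null libraries (SD, n = 2 each), without overlap. The 5 neuron markers summed to 161 and 170 CPM in the Sox10 cells of these controls and 250 and 607 CPM in those of the null libraries, and their part in the result was not tested. The Tbx2 difference was 1.31 (0.72 to 1.90, unadjusted p = 0.000584, adjusted p = 0.212 by edgeR), and that of Tbx3 was 0.60 (-0.07 to 1.28, adjusted p = 0.528). edgeR called 0 of the 2 genes that passed the low-count filter in Sox10 cells, Tbx20 being below it, beside 0.0318% of all genes. Only Tbx2 was at an unadjusted p under 0.05, ranking 33 of 12587 by p. DESeq2 called 1 of the 2 and 73 genes in all. The Tbx2 value was 1.57 without null replicate 1 and 1.00 without null replicate 2, and the Tbx3 value was 0.93 without null replicate 1. Each lone library was assumed to vary as the others did.

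At E9.5, with 1 library per genotype and no test, Tbx2 was at 13.6 CPM in the control and 25.2 CPM in the null mesenchyme, and Tbx3 at 23.8 and 31.7 CPM. Most of this lay outside the Hox 3 cells, where Tbx2 was at 14.5 and 27.3 CPM and Tbx3 at 22.8 and 33.9 CPM. In the Hox 3 cells Tbx2 was at 10.5 and 16.1 CPM and Tbx3 at 26.9 and 22.3 CPM. At E9.5 as in the E10.5 means, Tbx3 was lower in the null library than in the control in the Hox 3 cells and higher in the others.

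Tbx2 and Tbx3 were found in the same cells more often than their shares alone would give. In mesenchymal cells thinned to 5000 UMIs, the ratio of cells with both to the number given by the product of the shares was 3.0 and 2.69 in the E10.5 controls, 1.94 and 2.68 in the E10.5 null libraries. It was 1.38 in the E9.5 control, where 44 cells held both against 31.8 by the product, and 1.35 in the E9.5 null library. At E8.5 0 cells held both against 0.545 by the product, too few to compare. The mean over the 4 E10.5 libraries was 2.58 ± 0.451 (SD), and it was 2.86 ± 0.519 at 3000 UMIs and 2.13 ± 0.355 unthinned. In the cells without a Hox 3 UMI it was 3.53 and 3.15 in the controls and 2.02 and 1.59 in the null libraries. Tbx2 and Tbx20 gave 0.75, 0.45, 0.71 and 0.89 in the E10.5 libraries and Tbx3 and Tbx20 0.79, 1.29, 0.56 and 0.79, below 1 in 7 of the 8 values. The mesenchyme holds classes with different levels of Tbx2 and Tbx3, and their part in the ratio was not tested.

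**Figure D5:**
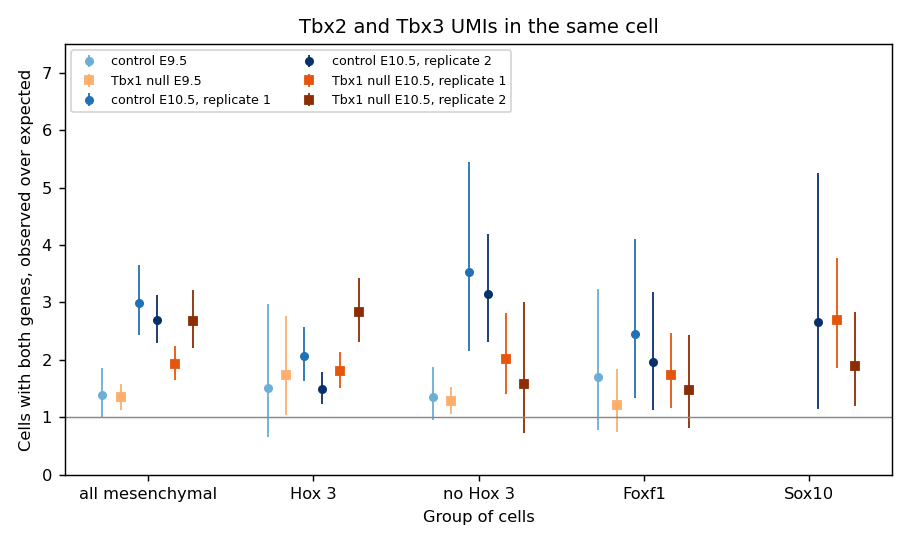
Ratio of the observed number of cells with both Tbx2 and Tbx3 UMIs to the number given by the product of their shares. Cells were thinned to 5000 UMIs. Each point is an E9.5 or E10.5 library in all mesenchymal, Hox 3, no Hox 3, Foxf1 or Sox10 cells, with a line at a ratio of 1. Points with under 1 cell given by the product are left out. In all mesenchymal cells the 4 E10.5 libraries lie between 1.94 and 3.0.

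Across 54 points, each a cell group in a library, the genes whose log2(CPM + 1) followed Tbx2 most closely among 10491 were the adhesion gene Vcam1 (Pearson r = 0.927), Kank4 (0.923), the scavenger receptor gene Scarf2 (0.917), the G protein subunit gene Gng8 (0.911) and Hand2 (0.904). Those closest to Tbx3 were the sialyltransferase gene St3gal1 (0.893), Tbx2 (0.867), Serpinf1 (0.856), the integrin gene Itga9 (0.841) and Arid3a (0.838). Those closest to Tbx20 were Gata5 (0.966), Gata4 (0.965), Cnn1 (0.963), the defensin gene Defb42 (0.953) and 1010001N08Rik (0.951). Tbx20 followed Tbx2 with r = 0.357 and Tbx3 with r = 0.328. The points share libraries and depth, so these values describe likeness and were not tested.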

How the data were processed

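The deposited values are counts: the authors aligned the reads with Cell Ranger 6.0.1 to mm10 and deposited raw UMI counts per gene and cell barcode for each library, without normalization. A cell was kept if it had 1000 genes or more and its mitochondrial share did not exceed 10%, and the highest Scrublet scores (scanpy 1.11.5) were removed as doublets at 0.8% per 1000 barcodes. The kept cells of a library held 125709299 to 198578057 UMIs. Intervals and the limit set by a count of 0 cover counting error only.

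Counts were summed per library and cell group and tested with edgeR 4.0.16 (TMM, filterByExpr, quasi-likelihood, Benjamini-Hochberg), in R 4.3.3. The genotype, stage and interaction models used the E9.5 and E10.5 or the E10.5 libraries, and comparisons of cell groups had the library as a block. Confidence intervals are 95%. Scripts were tested on simulated data, where 77.0% of 2-fold changes by genotype over 15885 genes, 91.0% between Hox 3 groups over 14071, 87.0% between stages over 16395 and 23.5% of interactions over 14431 were recovered. Whether the simulated spread matches that of these libraries is not shown here, so these shares do not give the power of the tests above. Alternatives were DESeq2 1.42.0, other scaling, filters, thresholds, thinning and leaving out libraries.

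The genes, lists, groups of cells and tests were chosen with earlier results of these data known. Named genes were the 3 factors, up to 4 called genes per list and direction by size of change, and the 5 most alike by correlation. The tests in Hoxa2 and Sox10 cells, the splits by Hand2 and Dlx2, by the number of Acta2 and Tagln UMIs and by transcripts of other cell types, the weighted means, the cells with 20 or more Acta2 and Tagln UMIs and the runs without neuron transcripts were added after the levels had been seen.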

Additional observations from a re-analysis of the deposited data

Results flagged for a closer look

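The following differences were larger in one group than in another by a test of the difference itself. The Tbx2 difference between Hox 3-positive and Hox 3-negative mesenchymal cells changed between E9.5 and E10.5 by 2.04 on the log2 scale, a call lost without E10.5 control replicate 1 (adjusted p = 0.0847) or with at least 2 Hox 3 UMIs required (adjusted p = 0.0519). That between Hoxa2-positive and Hoxa2-negative cells changed by 1.63. The Tbx3 difference between Foxf1-positive and Foxf1-negative cells changed by -0.68 between the same stages, a call lost with every cell thinned to 5000 UMIs (-0.91, adjusted p = 0.0840). Arch 1 was taken at E9.5 and removed at E10.5, so the cell groups compared differ in make-up between these stages. The genotype difference of Tbx3 at E10.5 was lower by 1.78 on the log2 scale in Hox 3-positive than in Hox 3-negative mesenchymal cells (interaction -1.78).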

How the results depend on the processing

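Of 945 recomputed values for 74 results, 801 kept their direction and side of the threshold, 30 kept the direction and lost the call, 86 gained it and 27 reversed, and 1, the Tbx3 ratio with weighted classes, moved by more than the spread between replicates. All log2 values below are those of the named change, and the cause of a change was not tested unless stated. The Tbx3 interaction of genotype with Hox 3 stayed called at every setting run.

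With cells holding heart muscle, endothelium or epithelium transcripts left out, Tbx20 by genotype was 0.11 in mesenchymal cells, 0.24 in Hox 3 cells and -2.15 in Acta2/Tagln cells, 0.61 between Foxf1 groups at E10.5, 3.77 between Acta2/Tagln groups at E9.5, -0.48 between mesenchymal and Sox10 cells, and 1.36 and 2.76 by stage in mesenchymal and Hox 3 cells. Between Acta2/Tagln groups at E10.5, Tbx2 was then 0.37 and Tbx3 0.30, and the genotype by Foxf1 interaction of Tbx3 was -0.0074.

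Thinned to 5000 UMIs a cell, Tbx2 by genotype was 0.38 in Hox 3 cells and 0.45 in Acta2/Tagln cells, the stage difference of the Hox 3 split was 1.52 for Tbx3 and -0.093 for Tbx20, the Foxf1 split of Tbx3 at E10.5 was -0.25, the stage difference of the Acta2/Tagln split was -0.23 for Tbx3, and the interaction of Tbx2 was -0.66. With at least 5 UMIs required of mesenchymal cells, Tbx2 by genotype in Hox 3 cells was 0.22, the stage difference of the Hox 3 split of Tbx3 1.84, the Foxf1 split of Tbx3 at E10.5 -0.044, mesenchymal against Sox10 cells for Tbx3 0.63, the Hox 3 interaction of Tbx2 -0.74 and the Foxf1 interaction of Tbx3 -0.32. Without cells holding neuron transcripts, chosen after seeing the data, these were 0.054 for Tbx2 by genotype in Hox 3 cells, 2.06 for the stage difference of Tbx3 and -0.80 for the interaction of Tbx2. With splits at 2 UMIs and Acta2/Tagln at 10, the stage differences were 1.94 for Tbx2 in the Hox 3 split and -0.19 for Tbx3 in the Acta2/Tagln split, and the Hoxa2 split of Tbx20 at E9.5 was -0.44.

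With no filter on low counts, values by genotype were -1.08 for Tbx20 in Acta2/Tagln cells, 1.61 for Tbx3 and 2.69 for Tbx20 in Hoxa2 cells and 1.30 for Tbx2 in Sox10 cells, and all of these were called. In the same runs the Hox 3 split of Tbx2 at E9.5 was -0.81, its stage difference for Tbx3 1.93, that of the Acta2/Tagln split for Tbx20 1.82, mesenchymal against Sox10 cells for Tbx3 0.46, the stage difference of Tbx3 in mesenchymal cells -0.62, and the Hox 3 interaction -1.01 for Tbx2 and -0.95 for Tbx20. With the looser gene limit of 200 and the stricter mitochondrial limit of 5%, Tbx20 by genotype in Acta2/Tagln cells was -0.99, the Foxf1 split of Tbx2 at E10.5 0.045, mesenchymal against Sox10 cells for Tbx3 0.56, the stage difference of Tbx2 0.89 and the Foxf1 interaction of Tbx3 -0.081, which was -0.080 with doublets kept. DESeq2 gave 1.65 for Tbx3 and 2.84 for Tbx20 by genotype in Hoxa2 cells, 1.30 for Tbx2 in Sox10 cells, 0.43 for Tbx3 between mesenchymal and Sox10 cells, -0.63 for Tbx3 by stage and -1.10 for the interaction of Tbx2. DESeq2 size factors in edgeR gave 0.81 for Tbx2 and -0.63 for Tbx3 by stage.

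The replicate numbers did not pair the samples: deviations of same-numbered libraries correlated at 0.0753 over 15885 genes, with 2 pairs. With the replicate block edgeR called results by genotype that it did not call without it. These were Tbx20 in Acta2/Tagln cells (-1.03), Tbx2, Tbx3 and Tbx20 in Hoxa2 cells (0.79, 1.65 and 2.27) and Tbx2 in Sox10 cells (1.31).

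Leaving out each E10.5 library in turn, values by genotype ran from -0.58 to 0.22 for Tbx2 in Hox 3 cells, 0.84 to 1.38 for Tbx20 in Foxf1 cells, -0.51 to 0.080 for Tbx3 and -1.31 to -0.79 for Tbx20 in Acta2/Tagln cells, 0.43 to 1.18 for Tbx2, 1.39 to 1.95 for Tbx3 and 0.68 to 3.74 for Tbx20 in Hoxa2 cells, and 1.00 to 1.57 for Tbx2 and 0.17 to 0.93 for Tbx3 in Sox10 cells. Between groups of cells they ran from 1.22 to 1.93 for Tbx3 in the Hox 3 split at E10.5, 1.79 to 2.24 for the stage difference of Tbx2, -0.058 to 0.10 for Tbx2 in the Foxf1 split, -0.55 to 0.13 for Tbx3 in the Hoxa2 split, and 0.25 to 0.61 for Tbx3 between mesenchymal and Sox10 cells. By stage they ran from 0.69 to 1.00 for Tbx2 and -0.67 to -0.48 for Tbx3, and the interactions from -1.29 to -0.83 for Tbx2 with Hox 3, -0.35 to 0.060 for Tbx2 with Foxf1 and -0.065 to 0.054 for Tbx3 with Foxf1.

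The numbers of genes called, with the lowest and highest over the settings, were, by genotype, 20 (7 to 1408) in mesenchymal, 10 (0 to 283) in Hox 3, 7 (0 to 1300) in Foxf1, 54 (4 to 490) in Acta2/Tagln, 39 (13 to 1207) in Hoxa2 and 4 (2 to 692) in Sox10 cells. At E10.5, at E9.5 and for the difference between the stages they were 2067 (802 to 3141), 2321 (561 to 4870) and 345 (161 to 1545) in the Hox 3 split, 2968 (724 to 3511), 645 (103 to 1573) and 170 (68 to 680) in the Foxf1 split, 5246 (2168 to 5996), 2586 (387 to 4408) and 345 (82 to 1281) in the Acta2/Tagln split, and 2660 (274 to 3404), 896 (357 to 3894) and 3002 (429 to 5175) in the Hoxa2 split. Mesenchymal cells gave 5849 (3248 to 6768) against Sox10 cells and 6379 (3660 to 7831) against neural progenitors. The stage called 3746 (1300 to 5242) in mesenchymal and 3017 (1250 to 4257) in Hox 3 cells, and the interactions 47 (47 to 545) with Hox 3 and 263 (31 to 1147) with Foxf1. With the replicate block the numbers by genotype were 58 in mesenchymal, 103 in Hox 3, 541 in Foxf1, 490 in Acta2/Tagln, 909 in Hoxa2 and 312 in Sox10 cells.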
